A study of Mus musculus with 24 samples.

Results

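The G1 cyclins, cyclin-dependent kinases (CDKs) and CDK inhibitors described here are 10 mouse genes chosen by name: Ccnd1, Ccnd2, Ccnd3, Ccne1, Ccne2, Cdk2, Cdk4, Cdk6, Cdkn1b and Cdkn2b. The choice was made with earlier results of these data known. They are 10 of the 36528 genes counted in each library, and all 10 were abundant enough to be among the 17468 genes tested. The libraries hold polyA RNA of sorted cells from tumours of the mouse small intestine. Every tumour carried the genotype recorded as AKVPL, the saline controls included, and no other allele is named. The groups were saline at 24 h, 48 h and 96 h and diphtheria toxin (DT) at 24 h, 48 h and 96 h, with 4 libraries in each of the 6 groups. DT was used to remove cells that express Lgr5, the receptor by which stem cells of the intestine are known. EpCAM, a cell adhesion protein of epithelium, is part of each sample's name, and the labels give the sort as bulk. The sources used here do not give age, strain, dose or the promoter that makes cells sensitive to DT. Nothing in the labels says that the 4 libraries of a group came from separate animals, so the p-values measure the spread between these libraries, which may be technical.

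In G1, D-type cyclins (Ccnd1, Ccnd2, Ccnd3) bind the kinases Cdk4 and Cdk6 and begin the phosphorylation of the retinoblastoma protein and its relatives, the pocket proteins. Phosphorylated pocket proteins release E2F transcription factors, which switch on genes of DNA replication and also Ccne1 and Ccne2. These E-type cyclins bind Cdk2, complete the phosphorylation and bring the cell into S phase. Cdkn2b (p15) blocks Cdk4 and Cdk6, and Cdkn1b (p27) blocks Cdk2 bound to cyclin E. In the intestine Ccnd1 and Ccnd2 are known as genes that rise with Wnt signalling in dividing crypt cells. Much of the control of these proteins is through phosphorylation and destruction, which RNA does not show.

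The libraries held 10.9 to 27.7 × 1e6 counts. Lgr5 was lower in DT than in saline libraries at 24 h (77 to 84.9 against 179 to 217 CPM, counts per 1e6 counts; log2 fold change -1.30 ± 0.12, SE, n = 4 against 4, adjusted p = 4.4e-08). Its log2 fold change was -0.60 ± 0.12 at 48 h (adjusted p = 0.00272) and -0.43 ± 0.12 at 96 h (adjusted p = 0.0447). A principal component analysis set apart 1 library, DT replicate 3 at 48 h: on the leading component it had a value of -2.97, and the other 3 DT libraries of 48 h had values of 18.43 to 30.86. That library held 171 CPM of Lgr5, inside the saline range of 164 to 198 CPM, and the other 3 held 95.4, 117 and 98.7 CPM. Without it the change of Lgr5 at 48 h was -0.80 ± 0.08 (adjusted p = 2.1e-06), and the results at 48 h are given with and without it. Saline libraries scored -26.73 to -17.15 on that component, so the library left out is the DT library nearest to saline. Larger changes without it follow in part from that choice and are no separate support. By chi-square per degree of freedom of the counts, DT replicate 1 of 48 h differed most (20.8 to 30.51, against 4.57 to 9.67 among the others). Without replicate 1, edgeR called 1496 genes at 48 h, against 1979 with all libraries. The 10 epithelial markers summed to 7041 to 9375 CPM per library. Fibroblast markers, mainly collagens, summed to 8329 to 24092 CPM, although EpCAM is in the names. T and NK cell markers summed to at most 1.69 CPM and B cell markers to at most 2.05 CPM, with Nkg7 at 0 in all 6 groups and Ms4a1 at 0 in 5.

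The first question was which G1 regulators differed between DT and saline libraries, and when. At 24 h both E-type cyclins, Ccnd3 and Cdk2 were higher after DT, Ccnd2 was lower, and the other 5 members did not pass the test. At 48 h only the E-type cyclins passed, and at 96 h no member did. A call here is an adjusted p under 0.05 in edgeR's quasi-likelihood test, with Benjamini-Hochberg adjustment over all genes tested. Of the 10 members 5 were called at 24 h, where 38.7% of all genes tested were called (19.9% higher and 18.9% lower). At 48 h 2 members were called against 11.3% of all genes, or 3 against 15.5% without the library that stood apart, and at 96 h 0 members against 4.03%. With so many genes called at 24 h, the members' share is not far from the background. The median log2 fold change of the members was 0.16 at 24 h and 0.08 at both later times, and that of all genes tested was -0.004, -0.002 and -0.006 at the 3 times. At 96 h, where edgeR called 0 members, an unadjusted p under 0.05 was reached by 2716 genes, among them Ccne1 and Ccne2, and DESeq2 and limma each called 0 members.

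**Figure D1:**
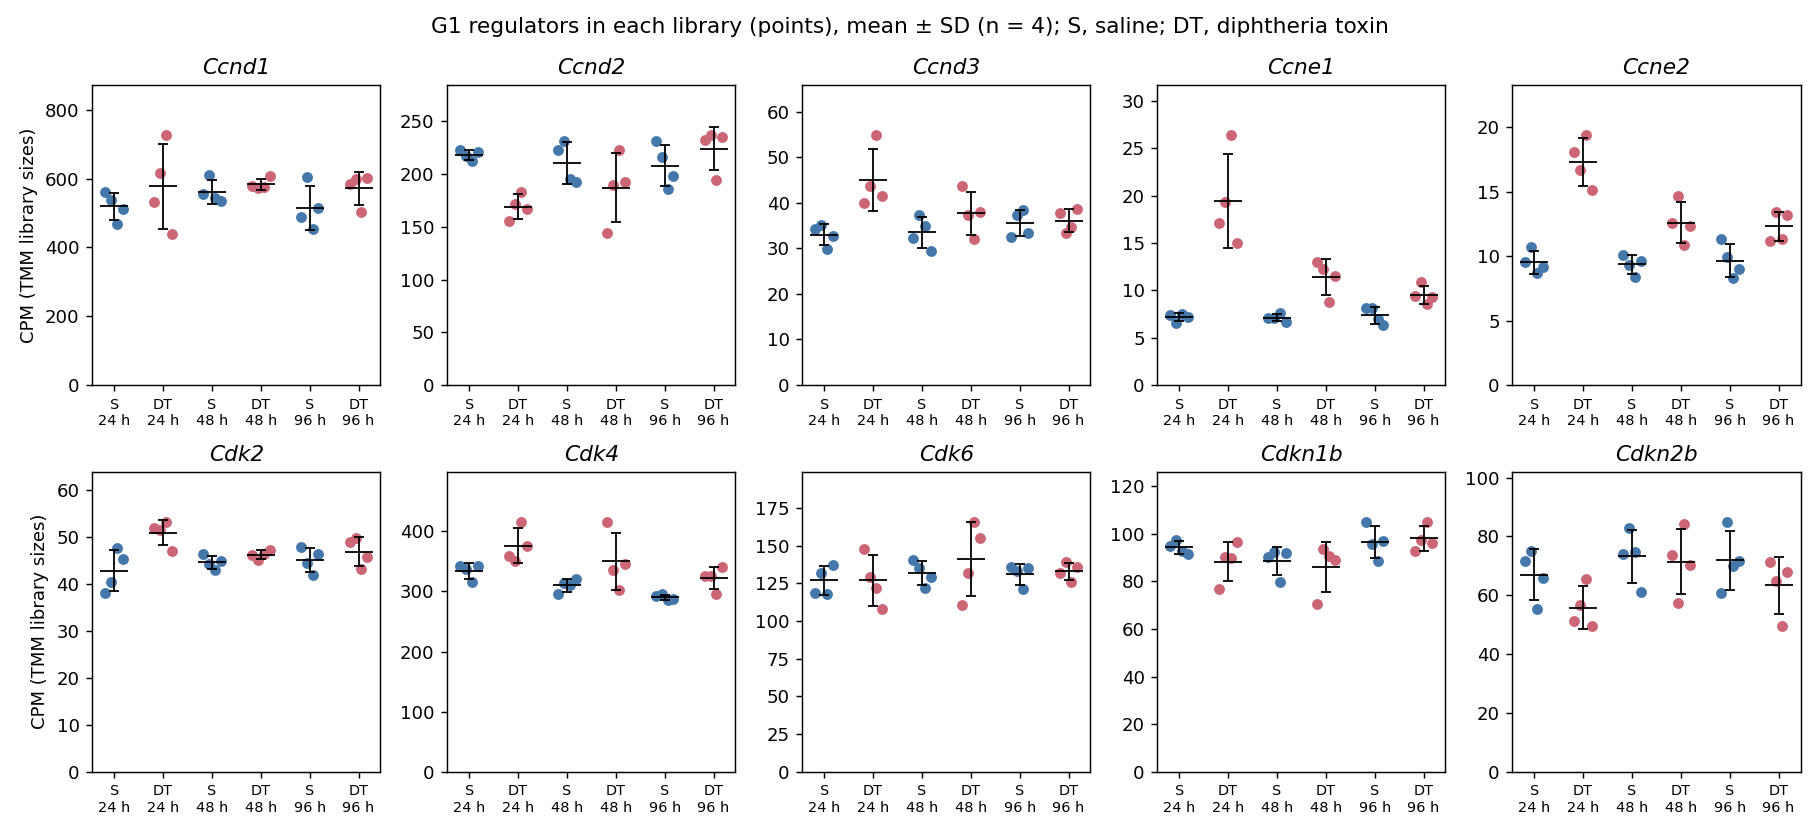
CPM of each G1 regulator (vertical axes, each from 0) in the 24 libraries, by group (horizontal axes: S, saline; DT, diphtheria toxin). Points are libraries, with the mean and SD of 4 drawn in black. The DT points of Ccne1 lie above the saline points at all 3 times and come nearer to them with time.

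Ccne1, cyclin E1 (Entrez 12447, chromosome 7, 38097984 to 38107490 on GRCm38), showed the largest change among the members. At 24 h it stood at 7.36, 6.60, 7.55 and 7.17 CPM in saline libraries and at 17.1, 19.3, 26.4 and 15.0 CPM in DT libraries. All 4 DT libraries lay well above all 4 saline libraries, a separation found upwards for 18.1% of all genes tested. The change was 1.44 ± 0.15 on the log2 scale (SE; 95% interval 1.13 to 1.75; adjusted p = 7.9e-08), a 2.72-fold difference. Replicate 3 was the highest DT library of that time for Ccne1 and for 7 other members, and without it the log2 fold change was 1.26. At 48 h the saline libraries held 7.12, 7.12, 7.57 and 6.65 CPM and the DT libraries 13, 12.3, 8.72 and 11.5 CPM. The groups again did not overlap, as for 7.16% of all genes in this direction, and the lowest DT value came from replicate 3, the library that stood apart. The change at 48 h was 0.67 ± 0.15 (adjusted p = 0.00388), a 1.60-fold difference, and 0.79 ± 0.14 without replicate 3 (adjusted p = 6.2e-04). At 96 h the values were 8.11, 8.13, 6.92 and 6.32 CPM in saline and 9.45, 10.9, 8.56 and 9.31 CPM in DT libraries. Here too every DT library was above every saline library, as for 4.91% of all genes. The change of 0.38 ± 0.15 did not pass the test at 96 h (95% interval 0.07 to 0.69; adjusted p = 0.183).

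Ccne2, cyclin E2 (Entrez 12448, chromosome 4, 11190433 to 11204779), moved in the same direction by less. At 24 h it rose from 9.51, 10.7, 8.68 and 9.17 CPM in saline to 18.1, 16.7, 19.4 and 15.1 CPM in DT libraries. The groups did not overlap, as for 18.1% of all genes in this direction. The change was 0.86 ± 0.11 (95% interval 0.63 to 1.10; adjusted p = 2.2e-06), or 1.82-fold. At 48 h the saline libraries held 8.36 to 10.1 CPM and the DT libraries 10.9 to 14.7 CPM. These ranges were close together but without overlap, as for 7.16% of all genes in this direction. The change at 48 h was 0.42 ± 0.11 (adjusted p = 0.0155), or 1.34-fold. The call at 48 h did not hold without replicate 2 of the DT group (0.36, adjusted p = 0.0542), nor when only the libraries of that time were fitted (0.43, adjusted p = 0.0551), and adjusted p ranged from 0.00614 to 0.0551 over 17 alternatives. Without replicate 3 of the DT group it was 0.50 ± 0.12 (adjusted p = 0.00614). At 96 h the groups overlapped, at 8.31 to 11.3 CPM in saline and 11.2 to 13.4 CPM in DT libraries, and the change of 0.34 ± 0.11 missed the threshold (adjusted p = 0.0934). It passed once saline replicate 1 of that time was left out (0.43, adjusted p = 0.0435). Ccne2 shares 5622 bases with Ints8, a subunit of the Integrator complex, and 798 bases with the non-coding RNA A630034I12Rik, and the sources used here do not say whether counting used strand. Reads from the shared stretch therefore cannot be assigned with certainty. At 24 h Ints8 changed by 0.22 ± 0.06 (adjusted p = 0.00671) and A630034I12Rik by 0.74 ± 0.21 (adjusted p = 0.00740).

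Whether the DT effect itself differed among times was tested as an interaction. Among the 3 times the effect on Ccne1 differed (adjusted p = 0.00465), and Ccne1 was the only member called in that test, where 7.97% of all genes were. From 24 h to 96 h the effect on Ccne1 fell by 1.06 ± 0.21 on the log2 scale (adjusted p = 0.00173), and that on Ccne2 fell by 0.52 ± 0.16 (adjusted p = 0.0330), in a test that called 11.9% of all genes. For Ccne2 that call was lost without any of 10 of the 16 libraries it rests on, with adjusted p from 0.0583 to 0.112. It was kept without DT replicates 2 or 4 or saline replicate 2 of 24 h, DT replicate 2 of 96 h, or saline replicates 3 or 4 of 96 h. From 24 h to 48 h the effect on Ccne1 fell by 0.77 ± 0.21 (adjusted p = 0.0414), where 2.89% of all genes were called. That call too was lost without any of 13 of 16 libraries (adjusted p 0.0602 to 0.115), and was kept without DT replicates 1 or 4 of 24 h or DT replicate 1 of 48 h. Between 48 h and 96 h no member passed, in a test that called 0.00572% of all genes. The differences there were -0.30 ± 0.21 for Ccne1 and 0.28 ± 0.14 for Ccnd2, so equal effects are not shown. At an unadjusted p under 0.05 the test among times gave 3714 genes.

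Summed per length, the E-type cyclins were scarce beside the other members and rose as a pair. The authors' length-normalized value, nRPKM, is a read count per kilobase of gene model and per 1e6 reads, scaled by a size factor. Summed nRPKM of Ccne1 and Ccne2 was 5.42 ± 0.0888 (SD, n = 4) in saline and 12.8 ± 2.68 in DT libraries at 24 h. It was 5.28 ± 0.131 and 7.93 ± 1.12 at 48 h (8.46 ± 0.457 for the 3 DT libraries without replicate 3), and 5.52 ± 0.672 and 7.14 ± 0.642 at 96 h. The DT range lay above the saline range at all 3 times. The share of Ccne1 in this sum was 60.8%, 55.2%, 63.5% and 61.0% in the saline libraries at 24 h and 65.4%, 69.9%, 73.2% and 66.6% in the DT libraries. The pair thus shifted towards Ccne1 in each DT library at 24 h. At 48 h the means were 60.4% ± 2.94 and 64.2% ± 2.57 (65.1% ± 2.37 without DT replicate 3) with overlapping ranges, and at 96 h they were 60.5% ± 2.12 and 60.9% in saline and DT libraries. No test was made of these shares, and taken over counts instead of per length Ccne1 held 43.0% in saline and 52.4% in DT libraries at 24 h.

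The genes whose levels most resembled the E-type cyclins were found by the root mean square difference of log2 CPM over the 24 libraries, each gene centred on its own mean, among 10320 genes. For Ccne1, whose own log2 values spread by 0.51 about their mean, these were Mcm5, a subunit of the replicative helicase, Psat1, an enzyme of serine synthesis (both 0.13), and the exonuclease Exo1 (0.14). For Ccne2, with a spread of 0.33, they were Rad54l, a recombination factor (0.10), Skp2, the subunit of a ubiquitin ligase that recognises p27, and Mcm2 (both 0.12). All these values share the libraries, and no p is given.

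The promoters of Ccne1 and Cdk2, members that rose at 24 h, are shown with the E2F core letters GCGGGA, searched on both strands, in capitals. Each is the 250 bases before the RefSeq start, read 5′ to 3′ along the gene (RefSeq, GRCm38.p6). Ccne1 lies at chr7:38107491-38107740 on the minus strand and Cdk2 at chr10:128705052-128705301 on the minus strand.
Ccne1: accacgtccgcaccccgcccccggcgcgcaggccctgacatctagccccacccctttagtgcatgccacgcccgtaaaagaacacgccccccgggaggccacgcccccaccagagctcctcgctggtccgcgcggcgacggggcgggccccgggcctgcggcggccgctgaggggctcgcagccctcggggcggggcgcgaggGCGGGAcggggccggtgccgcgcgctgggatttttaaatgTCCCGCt
Cdk2: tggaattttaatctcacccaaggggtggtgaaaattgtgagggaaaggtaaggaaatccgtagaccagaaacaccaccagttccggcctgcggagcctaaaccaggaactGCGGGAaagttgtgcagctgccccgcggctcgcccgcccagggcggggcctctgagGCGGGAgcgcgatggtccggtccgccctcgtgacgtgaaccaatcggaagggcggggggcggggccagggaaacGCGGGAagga
The Ccne1 window held 2 matches, starting 47 and 7 bases before the start, and the Cdk2 window held 3, starting 140, 84 and 10 bases before it. Of 32851 promoter windows of this length 16.9% held at least 1 match. A longer set of E2F words (TTTCCCGC, TTTCGCGC, TTTGCCGC and TTTGGCGC) was in 1.86% of windows, and among the members only in that of Cdk2, where it overlaps the match at 140. The Cdk2 window also held the CCAAT box, at 45 bases, which 33.8% of windows hold. Windows were found for 7 of the 10 members, not for Ccnd1, Ccnd2 or Ccne2. Of the others, Cdk6 held 1 match of GCGGGA, and Ccnd3, Cdk4, Cdkn1b and Cdkn2b did not hold these letters in the window searched.

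The D-type cyclins moved in different directions at 24 h. Ccnd1 (Entrez 12443, chromosome 7, 144929931 to 144939831), the most abundant of them, held 562, 537, 468 and 512 CPM in saline and 531, 615, 727 and 439 CPM in DT libraries. The DT libraries spread on both sides of the saline range. The change of 0.15 ± 0.11 did not pass the test (95% interval -0.08 to 0.38; adjusted p = 0.281). Over 17 alternatives its adjusted p ran from 0.0400 to 0.846, the lowest being without DT replicate 4 (0.26). At 48 h and 96 h the intervals were -0.17 to 0.29 and -0.08 to 0.38, and without DT replicate 3 the estimate at 48 h was 0.08 ± 0.12 (adjusted p = 0.714). LTO1, whose gene model shares 818 bases with Ccnd1, changed by 0.09 ± 0.11 at 24 h (adjusted p = 0.552).

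Ccnd2 (Entrez 12444, chromosome 6, 127125162 to 127152188) fell at 24 h, from 223, 217, 212 and 221 CPM in saline to 155, 172, 183 and 167 CPM in DT libraries. The groups did not overlap, as for 16.2% of all genes in this direction. The change was -0.36 ± 0.10 (95% interval -0.57 to -0.16; adjusted p = 0.00523), so that saline libraries held 1.29-fold more. At 48 h the groups overlapped: the saline libraries held 192 to 231 CPM and the DT libraries 144, 189.7, 223 and 192 CPM, and the change of -0.17 ± 0.10 missed the threshold (adjusted p = 0.287). The 223 CPM came from the library that stood apart, and without it the change was -0.25 ± 0.10 (adjusted p = 0.0968). At 96 h the estimate had the other sign, at 0.11 ± 0.10 (95% interval -0.10 to 0.32; adjusted p = 0.696). The effect at 96 h was above that at 24 h by 0.47 ± 0.14 (adjusted p = 0.0282). That difference missed the threshold without DT replicates 1 or 2 or saline replicate 4 of 96 h (adjusted p 0.0567 to 0.0609). In the test among all 3 times Ccnd2 did not pass (adjusted p = 0.0852).

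Ccnd3 (Entrez 12445, chromosome 17, 47505051 to 47599689), the least abundant D-type cyclin, rose at 24 h from 34.2, 35.1, 29.9 and 32.8 CPM to 39.9, 43.7, 54.9 and 41.6 CPM. All DT libraries lay above all saline libraries, as for 18.1% of all genes. The change was 0.45 ± 0.10 (95% interval 0.24 to 0.66; adjusted p = 0.00101), or 1.37-fold. At 48 h and 96 h the ranges overlapped, and the changes were 0.17 ± 0.10 (adjusted p = 0.291) and 0.03 ± 0.10 (adjusted p = 0.947). Without DT replicate 3 the change at 48 h was 0.26 ± 0.10 and still missed the threshold (adjusted p = 0.0857). The effect at 96 h differed from that at 24 h by -0.42 ± 0.14, which missed the threshold (adjusted p = 0.0549). This difference passed with DESeq2 (adjusted p = 0.0483) and with the 1 CPM filter (0.0482). It also passed without DT replicate 4 of 24 h (0.0431) or saline replicate 1 of 96 h (0.0422), but not with the replicate block (0.172). Ccnd3 shares 359 bases with Bysl, a factor of ribosome assembly that rose by 0.74 ± 0.09 at 24 h (adjusted p = 1.9e-06), and without strand the reads of the shared stretch cannot be told apart. Genes most like Ccnd3 over the 24 libraries, about whose mean it spread by 0.19, were Tmem109 (0.07), Nudc and Nup62 (both 0.08).

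Because Ccnd2 fell while Ccnd3 rose, the makeup of the D-type cyclins shifted at 24 h with little change in their sum. Summed nRPKM was 157 ± 11.0 in saline and 168 ± 31.5 in DT libraries, with overlapping ranges. Ccnd2 made up 19.0% ± 0.905 of it in saline and 14.1% ± 2.01 in DT libraries, and Ccnd3 made up 7.53% ± 0.194 and 9.69% ± 0.912. For both genes the ranges of the groups were apart (18.2% to 20.1% against 12.2% to 16.9%, and 7.32% to 7.78% against 8.91% to 11.0%). Ccnd1 held 73.4% ± 0.907 and 76.2% ± 2.82 with overlapping ranges. By 96 h the shares of Ccnd2 were 18.3% ± 1.79 and 18% ± 0.240.

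**Figure D2:**
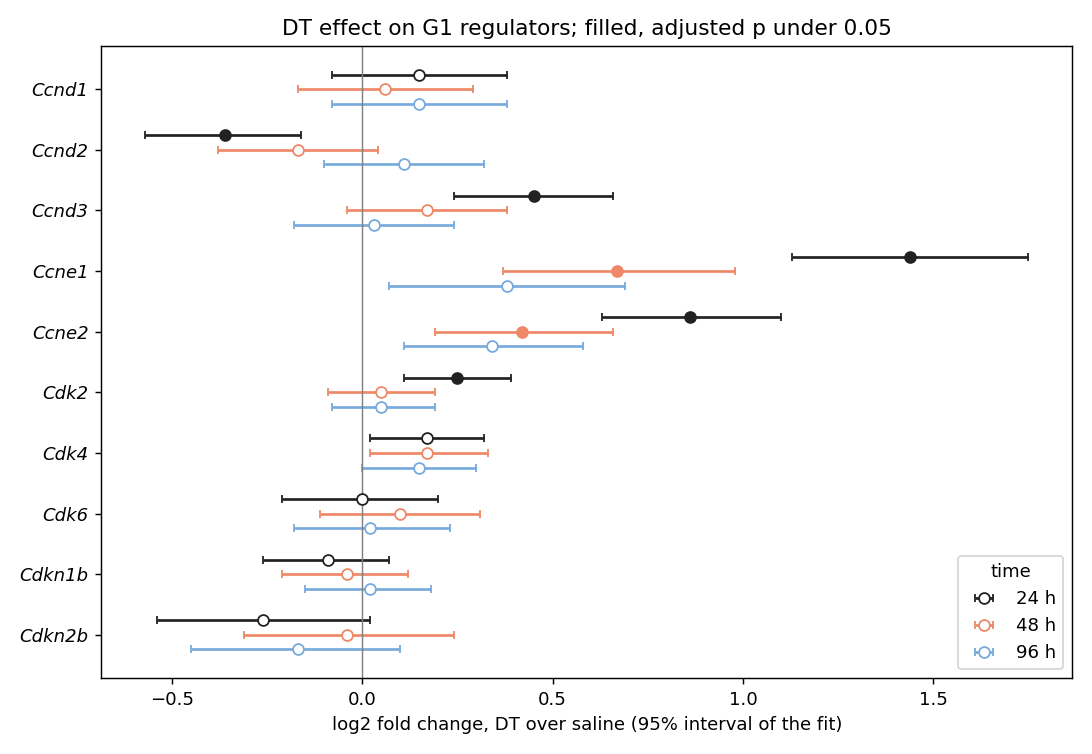
Log2 fold change of DT over saline (horizontal axis) for each member (vertical axis) at 24 h (black), 48 h (orange) and 96 h (blue), with the 95% interval of the fit over 24 libraries. Filled points have an adjusted p under 0.05: 5 at 24 h, 2 at 48 h and none at 96 h, where the 2 largest estimates are those of Ccne1 (0.38) and Ccne2 (0.34).

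Of the kinases, Cdk2 passed the test at 24 h with a small change, and Cdk4 and Cdk6 did not. Cdk2 (Entrez 12566, chromosome 10, 128697938 to 128705051), the partner of the E-type cyclins, held 38.1, 40.4, 47.5 and 45.2 CPM in saline and 51.9, 51.5, 53.2 and 47.0 CPM in DT libraries. The highest saline library lay just above the lowest DT library. The change was 0.25 ± 0.07 (95% interval 0.11 to 0.39; adjusted p = 0.00384), or 1.19-fold, well under the changes of its cyclins. At 48 h and 96 h it was 0.05 ± 0.07 with intervals of -0.09 to 0.19 and -0.08 to 0.19, and 0.06 ± 0.07 at 48 h without DT replicate 3 (adjusted p = 0.605). The gene lies wholly inside a long gene model of Pmel, a melanosome protein, which was counted at a mean of 81.5 reads and changed the other way (-0.58 ± 0.17, adjusted p = 0.00787).

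Cdk4 (Entrez 12567, chromosome 10, 127063535 to 127067288) held 342, 337, 315 and 342 CPM in saline and 359.5, 351, 416 and 375 CPM in DT libraries at 24 h. All DT libraries lay above all saline libraries, as for 18.1% of all genes. The change of 0.17 ± 0.07 did not pass the test (95% interval 0.02 to 0.32, adjusted p = 0.0693). It passed with a filter of 1 CPM in 4 libraries (adjusted p = 0.0442) and when only libraries of that time were fitted (adjusted p = 0.0451), and ranged up to 0.261 over 17 alternatives. At 48 h the DT libraries held 416, 336, 302 and 345 CPM against 295 to 321 CPM in saline. Again 1 DT library, the replicate 3 that stood apart, lay inside the saline range. The change was 0.17 ± 0.07 (adjusted p = 0.129), and without that library it was 0.25 ± 0.07 and passed (adjusted p = 0.0176). At 96 h the groups did not overlap, as for 4.91% of all genes in this direction (285 to 295 CPM in saline, 296 to 340.4 CPM in DT libraries). The change of 0.15 ± 0.07 did not pass (adjusted p = 0.326). The 3 estimates were thus alike in size, between 0.15 and 0.17, and none passed the test over all 24 libraries. The test among times did not call Cdk4 either.

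The Cdk4 promoter is shown because it holds the E-box CACGTG, a site known to be bound by MYC and related factors, more often than any other window of the members. It lies at chr10:127063285-127063534 on the plus strand, read 5′ to 3′, with the E-box letters in capitals.
Cdk4: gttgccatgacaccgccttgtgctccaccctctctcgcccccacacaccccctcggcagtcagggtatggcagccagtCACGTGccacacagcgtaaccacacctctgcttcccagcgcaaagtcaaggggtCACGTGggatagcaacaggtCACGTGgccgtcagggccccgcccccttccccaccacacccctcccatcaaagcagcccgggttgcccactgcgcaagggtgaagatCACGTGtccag
The 4 matches start 172, 118, 98 and 11 bases before the RefSeq start. Of all windows 6.02% held the E-box, and among the members with a window only Cdk4 and Cdk6 did. The Cdk4 window also held a TCF match (CTTTGAT or CTTTGAA), at 52 bases, which 7.48% of windows held and no other window of the members did.

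Cdk6 (Entrez 12571, chromosome 5, 3341004 to 3531008) held 119, 132, 118 and 137 CPM in saline libraries of 24 h and 148, 129, 122 and 108 CPM after DT. The DT libraries reached further than the saline libraries at both ends. The estimate was -0.00 ± 0.10 (95% interval -0.21 to 0.20; adjusted p = 0.992). At 48 h and 96 h the intervals were -0.11 to 0.31 and -0.18 to 0.23, and the estimate at 48 h went from 0.10 to 0.03 ± 0.10 without DT replicate 3 (adjusted p = 0.884). Cdk4 made up 95.3% of the summed nRPKM of Cdk4 and Cdk6 in saline and 95.8% in DT libraries at 24 h, where the sums were 207 ± 8.94 and 232 ± 17.5.

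Neither inhibitor passed the test at any time. Cdkn1b, p27 (Entrez 12576, chromosome 6, 134920401 to 134925525), held 95, 97.3, 92.8 and 91.5 CPM in saline and 76.9, 90.0, 89.6 and 96.4 CPM in DT libraries at 24 h. Of the DT libraries 3 lay below the saline range and 1 within it. The change was -0.09 ± 0.08 (95% interval -0.26 to 0.07; adjusted p = 0.379), and the intervals at 48 h and 96 h were -0.21 to 0.12 and -0.15 to 0.18. Without DT replicate 3 the estimate at 48 h was -0.06 ± 0.09 (adjusted p = 0.724). Cdkn2b, p15 (Entrez 12579, chromosome 4, 89306289 to 89311032), held 71.6, 75.1, 55.3 and 65.7 CPM in saline libraries of 24 h and 51.4, 56.6, 65.6 and 49.4 CPM after DT. The DT values lay mostly low, with 2 of 4 inside the saline range. The change of -0.26 ± 0.13 missed the threshold (95% interval -0.54 to 0.02; adjusted p = 0.131). Without saline replicate 3 it was -0.36 and passed (adjusted p = 0.0431), and over 17 alternatives adjusted p reached 0.350. At 48 h and 96 h the intervals were -0.31 to 0.24 and -0.45 to 0.10. The estimate at 48 h went from -0.04 to -0.11 ± 0.14 without DT replicate 3 (adjusted p = 0.647).

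Per length the members differed widely in level. In saline at 24 h mean nRPKM was 197 for Cdk4, 115 for Ccnd1, 42.7 for Cdkn2b, 29.7 for Ccnd2, 18.1 for Cdkn1b, 14.9 for Cdk2, 11.8 for Ccnd3, 9.77 for Cdk6, 3.26 for Ccne1 and 2.16 for Ccne2. Of neighbours in this order only Ccnd3 and Cdk6 overlapped. Over all libraries Cdk4 lay above 99.1% of the genes tested and Ccnd1 above 98.1%, while Ccne1 lay above 44.1% and Ccne2 above 34.2%. The members that changed most at 24 h were thus those of the lowest level. In DT libraries at 24 h Ccne1 reached 8.85 nRPKM and overlapped Cdk6 (9.78). There Cdk2 (17.7) came before Cdkn1b (17.0), and the ranges of Cdkn1b overlapped those of both Cdk2 and Ccnd3 (16.1). In the 4 groups of 48 h and 96 h the order of the means was that of saline at 24 h. Overlapping neighbours in these groups were Cdkn1b and Cdk2 as well as Ccnd3 and Cdk6 at 48 h, and Cdkn2b and Ccnd2 in DT libraries at 96 h. Counts behind these values ranged from 88 to 713 per library for Ccne1 and from 119 to 524 for Ccne2, but from 3455 to 11267 for Cdk4.

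**Figure D3:**
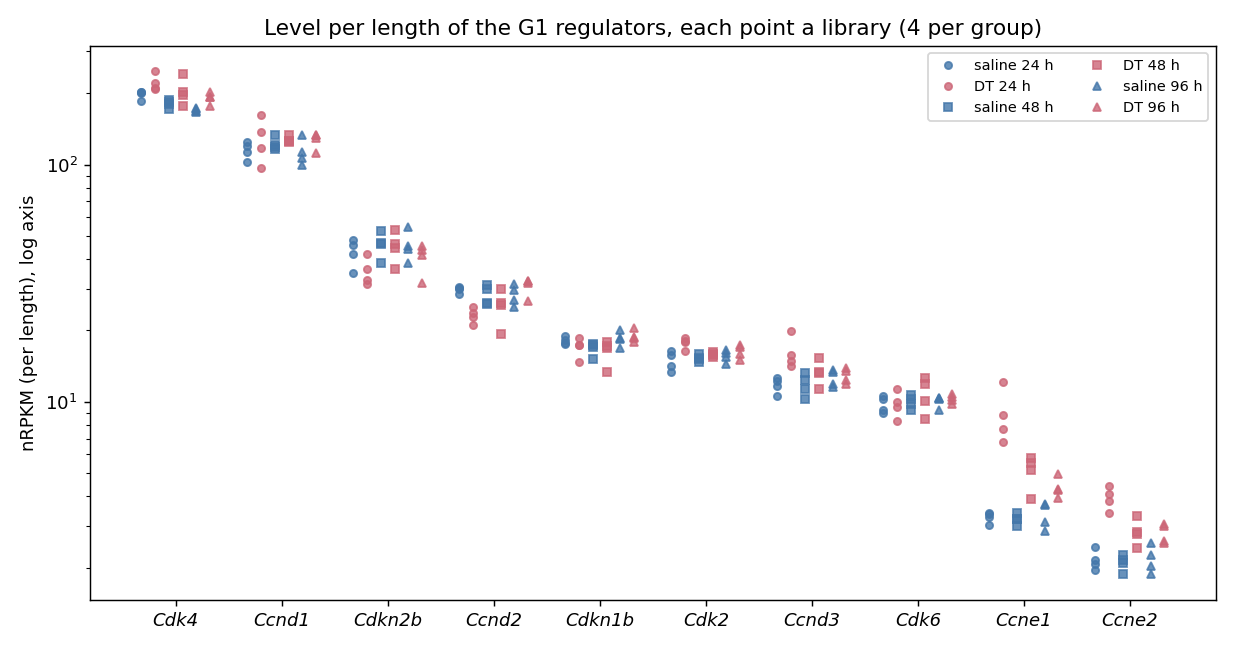
nRPKM of each member (vertical axis, log scale) in every library, members ordered by their mean in saline at 24 h (horizontal axis); colour gives the treatment and symbol the time. Ccne1 rises from about 3.26 in saline to 8.85 in DT libraries at 24 h, next to Cdk6 (9.78).

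In the saline libraries alone no member was called as differing among times (0 of 10, against 1.05% of all genes, with 2405 genes at an unadjusted p under 0.05). The nearest to a change was Cdk4, whose saline level at 96 h was lower than at 24 h by 0.20 on the log2 scale (-0.20 ± 0.07, adjusted p = 0.131). Ccne1 and Ccne2 differed by 0.04 ± 0.15 and 0.02 ± 0.11 between these saline groups. Marker genes of other cells did differ between 24 h and 96 h in saline, a comparison that called 3.22% of all genes: 8 of 8 endothelial markers were higher and 6 of 10 macrophage and monocyte markers lower at 96 h. The leukocyte marker Ptprc was also lower (-1.61). Of 10 fibroblast markers 1 was called, as higher, and all had positive estimates (0.42 to 1.23, median 0.87). Of 10 epithelial markers 0 were called (median -0.09).

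Around the members, the rest of the G1 pathway was read from lists of its genes, whose counts stand beside 38.7% of all genes called at 24 h (19.9% higher, 18.9% lower), 11.3% at 48 h and 4.03% at 96 h. All these lists, the later cyclins and the replication genes included, were chosen with earlier results of these data known. Their counts are therefore no separate support. Of 13 pocket proteins and E2F factors 6 rose and 1 fell at 24 h (7 called; median log2 fold change 0.19). The activator E2f1 went from 17.2 to 29.1 CPM (0.77 ± 0.11, adjusted p = 4.9e-06). The repressors E2f7 and E2f8, themselves E2F targets, rose by 1.31 ± 0.15 and 1.15 ± 0.15, and E2f4, which acts mainly with pocket proteins, rose from 68.8 to 103 CPM (0.59 ± 0.06). Rbl2, the pocket protein p130 of resting cells, was the member of this list that fell (-0.40 at 24 h, adjusted p = 1.9e-05) and was lower again at 48 h (64.3 to 52.5 CPM, -0.29 ± 0.06, adjusted p = 0.00311). At 48 h 1 gene of the list rose (E2f4, 0.27 ± 0.06), or 3 without DT replicate 3 (E2f4, E2f2 and E2f1), and at 96 h 1 (E2f7, 0.62 ± 0.15, adjusted p = 0.0201).

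Among 5 other CDK inhibitors 1 rose and 2 fell at 24 h, with a median of 0.04; with 38.7% of all genes called, such a count is not far from the background. Cdkn1c, the Cip/Kip inhibitor p57, fell from 87.0 to 36.7 CPM (-1.24 ± 0.10, adjusted p = 6.5e-09). No DT library reached its saline range, as for 16.2% of all genes in this direction. Its close relative Cdkn1b did not pass. Cdkn1a, p21, a target of p53, fell by 0.41 ± 0.12 on the log2 scale, from 127 to 95.7 CPM (adjusted p = 0.00638), with overlapping ranges. Cdkn2c, p18, rose from 6.06 to 9.05 CPM (0.59 ± 0.13, adjusted p = 7.6e-04). The estimate for Cdkn2b, also an INK4 inhibitor, had the opposite sign but did not pass. The rest of this list, Cdkn2a and Cdkn2d, did not pass either. At 48 h Cdkn1c alone passed, lower at 51.9 than at 76.8 CPM (-0.56 ± 0.10), Cdkn1a also passed as lower there without DT replicate 3, and at 96 h none of the 5 did.

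Of 15 genes of CDK activation and turnover of G1 regulators, 8 rose and 2 fell at 24 h (38.7% of all genes called; median 0.17), 3 rose at 48 h (11.3% of all genes called) with and without DT replicate 3, and 0 passed at 96 h. Skp2 and Cks1b, which together present p27 for destruction, rose from 10.7 to 17.4 CPM (0.70 ± 0.10) and from 15.1 to 25.6 CPM (0.77 ± 0.11). Cdc25a, the phosphatase that activates Cdk2, rose from 38.7 to 51.5 CPM (0.41 ± 0.08), and Fbxo4, implicated in cyclin D1 destruction, from 17.4 to 22.9 CPM (0.40 ± 0.07). Fbxw7, which targets cyclin E for destruction, was among the 2 genes that fell (-0.38, adjusted p = 0.00359), and the other is not named here. Fbxw7 and the value of Rbl2 at 24 h were picked out after being seen. Skp2, Cdc25a and Fbxo4 were still higher at 48 h, by 0.32 ± 0.10, 0.32 ± 0.08 and 0.21 ± 0.07.

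Most of the cyclins that act after G1, and the kinase Cdk1, also rose. Of 6 such genes 5 rose at 24 h (median 1.32), 4 at 48 h (0.52, and 4 again without DT replicate 3, 0.60) and 2 at 96 h (0.39). At 24 h Ccna2, cyclin A2, went from 36.2 to 91.7 CPM (1.34 ± 0.11) and Cdk1, the kinase of mitotic entry, from 25.4 to 61.8 CPM (1.29 ± 0.12). At 96 h Ccna2 was still higher, at 47.8 against 36.4 CPM (0.39 ± 0.10, adjusted p = 0.0346), as was Ccnb2, cyclin B2 (0.60 ± 0.11, adjusted p = 0.00153). The estimate for Ccna2 there was close to that of Ccne1 (0.38 ± 0.15), which did not pass. All 16 replication genes known as E2F targets rose at 24 h (0.53 to 1.87, median 0.98), 8 rose at 48 h (13 without DT replicate 3) and 1, Mcm2, at 96 h (0.35 ± 0.08, adjusted p = 0.0173). The effect differed among times for 14 of these 16, in a test that called 7.97% of all genes. In size, the change of Ccne1 at 24 h lay in the upper part of this range and that of Ccne2 below its median.

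**Figure D4:**
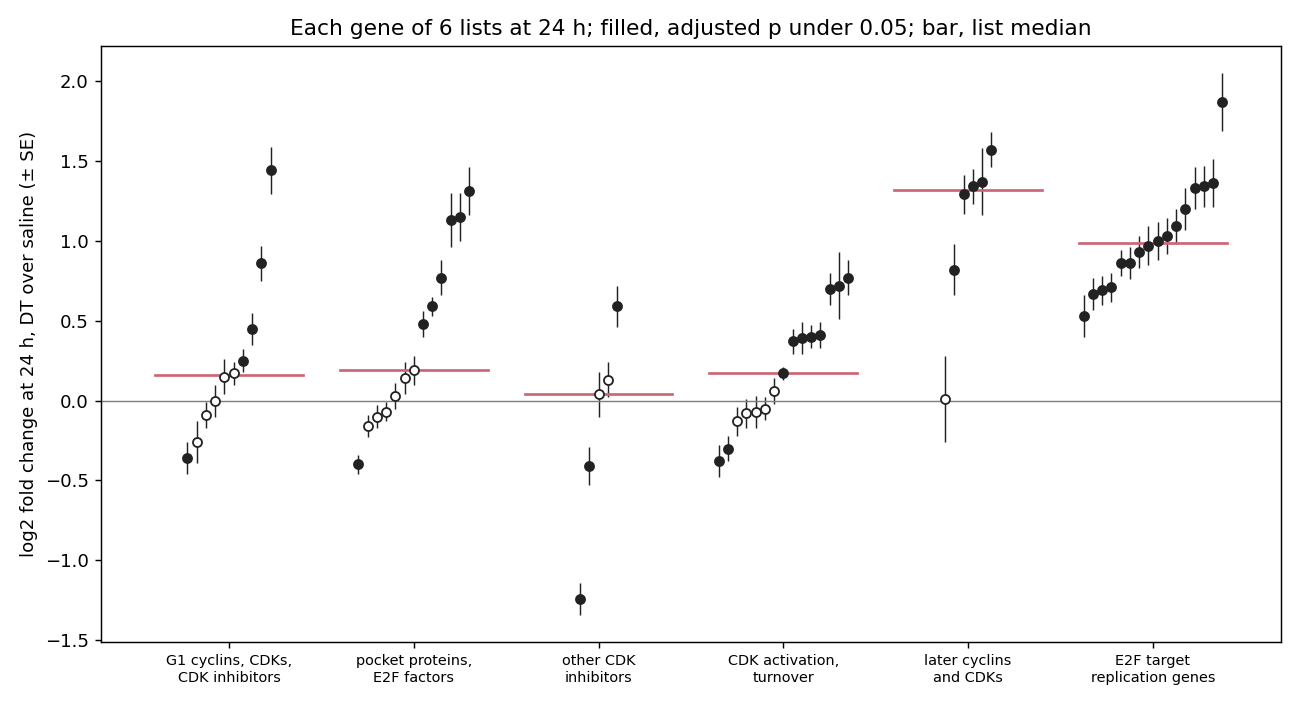
Log2 fold change of DT over saline at 24 h (vertical axis, ± SE) of every tested gene in the members and 5 other lists of the pathway (horizontal axis). Filled points have an adjusted p under 0.05 and red bars mark list medians, which run from 0.04 in the other CDK inhibitors to 1.32 in the later cyclins and CDKs, against 0.16 in the members.

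In bulk samples a lower or higher level may reflect the share of cells of a type or the RNA per cell, and these cannot be told apart here. The marker counts below stand beside 38.7% of all genes called at 24 h, 11.3% at 48 h and 4.03% at 96 h. Beside the changes at 24 h, 3 of 10 epithelial markers were higher and 2 lower (median 0.08). Their sums ran from 7301 to 7897 CPM in saline and from 7568 to 9375 CPM in DT libraries. Of 10 fibroblast markers 2 were higher and 1 lower (median 0.53), with sums of 10432 to 12335 CPM and 8329 to 13427 CPM. Of 8 endothelial markers 1 was higher, with sums of 221 to 317 CPM and 302 to 339.6 CPM, and 0 of 10 macrophage and monocyte markers passed, with sums of 337 to 462 CPM and 223 to 566 CPM. Mast cell markers summed to 55.7 to 84.9 CPM and 49.5 to 113 CPM, with 1 of 5 tested higher and 1 lower, and 0 of 4 neutrophil markers tested passed. The leukocyte marker Ptprc held 7.02 to 9.82 CPM and 2.91 to 12.4 CPM and did not pass. The mast cell marker that was lower, Ms4a2, went from 24.1 to 0.240 CPM at 24 h (-6.49, adjusted p = 4.2e-06), from 18.2 to 1.45 CPM at 48 h (-3.79, adjusted p = 0.00135) and from 20.6 to 1.12 CPM at 96 h (-4.46, adjusted p = 9.5e-04). The mast cell markers as a list did not follow it: their median log2 fold change was -0.05 at 24 h, 0.13 at 48 h and -0.02 at 96 h. Of the other markers 1 endothelial marker was higher and 1 macrophage marker lower at 48 h. Without DT replicate 3 the macrophage marker did not pass there, and 2 epithelial markers were higher. At 96 h no fibroblast, endothelial, macrophage or epithelial marker passed. The part of these cells in the members' changes was not tested.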

How the data were processed

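RNA of sorted cells was extracted with a column kit and checked on a Bioanalyzer, per the labels' protocols. The authors deposited a table of 36528 gene rows for each of the 24 libraries. Its count column holds reads aligned uniquely to a gene, per the file headers, and entered the tests as deposited. Its nRPKM column, per the file headers an RPKM that a size factor adjusts, gave the levels per length. Where a gene had at least 50 counts in every library (11928 genes), nRPKM equalled the count times a gene and a library factor within 3.0e-14. GSNAP and GRCm38 are named in the submitters' processing notes; the sources used here give no versions, annotation or use of strand. RefSeq symbols were found for 31049 Entrez identifiers (85.0%) on GRCm38.p6; the 5479 others held 1.29% to 1.52% of counts and stayed in the tests.

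Counts were tested with edgeR 4.0.16 (R 4.3.3), quasi-likelihood test with robust dispersion, TMM scaling and filtering by expression in groups. A single fit took all 24 libraries, by group (18 residual degrees of freedom, biological coefficient of variation 0.120). P-values are two-sided, adjusted by Benjamini-Hochberg over 17468 genes, with a threshold of 0.05. CPM use TMM library sizes. Depth was 10.9 to 27.7 × 1e6 counts a library. Alternatives were other scalings and filters, DESeq2 1.42.0, limma 3.58.1 (voom), a replicate block, the libraries of a time alone and leaving out each library. An alternative scaling, with size factors recovered from nRPKM, was chosen after seeing the data. On simulated data for DT against saline at 24 h (17296 genes, 200 changed) the edgeR fit made 160 calls, 8 of them false. It found 66% of the changes of 1.5-fold and 86% of those of 2-fold. In the data 38.7% of genes were called at 24 h, far more than the share changed in the simulation. The adjustment is stricter where few genes change, so these rates do not describe the test at 24 h. No libraries of a group agreed within sampling noise (smallest chi-square per degree of freedom 3.97).

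The members and lists were chosen with earlier results of these data known. All 10 members are named in each comparison, and from each pathway list up to 4 called genes per comparison with at least 1 CPM in a group and the smallest p. Outside this rule, Fbxw7 and Rbl2 at 24 h were named after being seen. Likeness was computed for the 3 called members with the largest changes at 24 h, among genes of 10 CPM or more on average.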

Additional observations from a re-analysis of the deposited data

Results flagged for a closer look

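The DT effect differed between times for 3 members in the tests of the difference itself. For Ccne1 the adjusted p among the 3 times was 0.00465, with differences of -0.77 ± 0.21 between 48 h and 24 h (SE; adjusted p = 0.0414) and of -1.06 ± 0.21 between 96 h and 24 h (adjusted p = 0.00173). Ccne2 differed by -0.52 ± 0.16 between 96 h and 24 h (adjusted p = 0.0330), and Ccnd2 by 0.47 ± 0.14 (adjusted p = 0.0282). These are edgeR values. Of all genes 7.97% were called among the 3 times, 2.89% between 48 h and 24 h and 11.9% between 96 h and 24 h. Ccne2 and Ccnd2 did not pass among the 3 times. Their calls, and that of Ccne1 between 48 h and 24 h, were lost with the replicate block and without some single libraries.

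DT replicate 3 of 96 h was far from the other 3 libraries for a pair of D-type cyclins. It held 502 CPM of Ccnd1 where the others held 585 to 601 CPM, a gap of 0.844 of the group's range. It held 194 CPM of Ccnd2 where the others held 232 to 237 CPM, a gap of 0.885. Both gaps exceed the critical value of Dixon's test for 4 libraries, which chance passes in about 1 in 20 groups. Of 60 groups of a member examined, these 2 were past it.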

How the results depend on the processing

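All 5 members called at 24 h, and Ccne1 at 48 h, kept their call and direction in 17 of 17 alternatives each. Of 1270 values of single members under the alternatives, 1204 kept their direction and their side of the threshold. The direction of Cdk6 at 24 h, -0.00 by the fit reported, was 0.01 with the 1 CPM filter, 0.00 with DESeq2, 0.00 with the authors' size factors, 0.00 with median-of-ratios scaling, 0.04 with no filter, 0.01 with the libraries of that time alone and 0.01 with upper quartile scaling; without single libraries it ran from -0.10 to 0.07. Leaving out a library also reversed Cdkn1b at 48 h (range -0.09 to 0.04) and 96 h (-0.00 to 0.06), Cdkn2b at 48 h (-0.11 to 0.06) and Ccnd3 at 96 h (-0.01 to 0.09).

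At 48 h 945 genes and 1 member were called with the libraries of that time alone, against 1979 and 2. The same replicate numbers gave no sign of pairing: the correlations of same-numbered deviations ran from -0.356 to 0.13, and no library correlated best with its own number. With 4 libraries a group, this check cannot exclude that same-numbered libraries share a source or a day of processing. With the replicate block 933 genes and 1 member were called at 48 h, 301 genes at 96 h (704 without it) and 476 among times (1392 without it); Ccne2 at 48 h then had an adjusted p of 0.0508. The block also ended the calls of the difference between 96 h and 24 h for Ccnd2 (0.48, adjusted p = 0.0736) and Ccne2 (-0.52, adjusted p = 0.0854). Among times DESeq2 called 3 members, adding Ccnd2 (0.0446) and Ccne2 (0.0452). Among saline times DESeq2 called 644 genes and limma 102, against 184. Over counts in place of nRPKM, Ccnd1 made up 67.4% and 72.6% of the D-type cyclins in saline and DT libraries at 24 h, Cdk4 72.5% and 74.8% of its pair, and Ccne1 43.0% and 52.4% of the E-type cyclins at 24 h, 43.2% and 47.3% at 48 h, and 43.3% and 43.8% at 96 h. The difference of Ccne1 between 48 h and 24 h missed the threshold with limma (adjusted p = 0.0843) and the block (0.0946), and that of Ccnd2 between 96 h and 24 h with no filter (0.0543). The cause of these shifts was not tested.

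With a library left out, genes called numbered 5961 to 6729 at 24 h, 1154 to 2741 at 48 h (the highest without DT replicate 3), 359 to 680 at 96 h, 840 to 2070 among times and 62 to 790 among saline times (the highest without saline replicate 1 of 96 h). Members called numbered 5 to 6, 1 to 3, 0 to 1, 1 to 2 and 0 in these comparisons. The member with the fewest counts was Ccne1, at 88 to 713 a library; how far depth limits its values was not tested.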
